A study of Mus musculus with 4 samples.

Results

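The values described here are those of 6 genes of the vitamin D hormone system among 22180 genes measured on microarrays of primary mouse astrocytes. They are *Vdr*, which encodes the vitamin D receptor, *Rxra*, *Rxrb* and *Rxrg*, which encode the retinoid X receptors that pair with it, and *Cyp24a1* and *Cyp27b1*, which encode the hydroxylases that inactivate and activate the hormone. The group was selected on values of these same arrays, the small response of *Vdr* to forskolin (FSK) in CRTC3 KO and its large response in WT cultures, so the contrasts are a description and nothing was tested. The study asked which cAMP-responsive genes depend on CRTC3, a coactivator of the transcription factor CREB. Astrocytes of CRTC3 KO and WT pups, both on a C57BL/6J background and taken at postnatal day 1 to 3, were grown out of mixed glial cultures, from which floating microglia had been shaken off. FSK switches on adenylyl cyclase, the enzyme that makes cAMP. The 4 groups were CRTC3 KO cells with 25 µM FSK for 2 h, CRTC3 KO cells with vehicle (0.1% DMSO), WT cells with 25 µM FSK for 2 h, and WT cells with vehicle. Each group is 1 array, so no difference has a replicate check. The sources used here do not give how many pups, or of which sex, went into a culture, nor whether the vehicle stayed on for the same time as FSK.

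The vitamin D receptor is a nuclear receptor that binds calcitriol, the active form of vitamin D, and acts on DNA as a heterodimer with a retinoid X receptor. *Cyp27b1* encodes the hydroxylase that makes calcitriol, and *Cyp24a1* encodes the hydroxylase that degrades it and is itself a classic target of the receptor. In bone and kidney cells, parathyroid hormone acts through cAMP on this system. CREB binds the cAMP response element (CRE) in promoters, and CRTC coactivators join it there when cAMP is high.

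All 6 genes were found, each on 1 probe set that names no other gene. Signals are on the log2 scale, on which a difference of 1 is a 2-fold change, and an FSK response is the signal with FSK minus that with vehicle in the same genotype. The median signal over all gene probe sets was 5.81. *Vdr*, *Rxra* and *Rxrb* were above it on all 4 arrays, whereas *Rxrg*, *Cyp24a1* and *Cyp27b1* were below it on all 4. No detection call was used, so whether the 3 dim genes were expressed was not determined.

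In CRTC3 KO cells the deleted gene, *Crtc3*, had log2 signals of 5.49 with FSK and 4.92 with vehicle, against 8.14 with FSK and 7.75 with vehicle in WT cells. The cultures also differed in other respects. Relative to WT, CRTC3 KO cells had higher signals of all 12 astrocyte markers, with a median difference of 0.55 with FSK and 0.53 with vehicle, and 11 of these were above the median signal on every array. Signals of 11 of 12 markers of fibroblasts and mural cells were lower in CRTC3 KO, with medians of -0.78 with FSK and -0.73 with vehicle. The summed linear signal of the fibroblast and mural markers was 6978 with FSK and 8064 with vehicle in CRTC3 KO, against 16457 with FSK and 16051 with vehicle in WT, and 2 of the 12 were below the median signal on each array. Of 11 microglia and macrophage markers, 10 were higher in CRTC3 KO with FSK and 8 with vehicle, and all 11 reached the median signal. Over all 22180 genes, 11055 were higher in CRTC3 KO with FSK and 11468 with vehicle, while 11098 and 10687 were lower. The X-linked transcript *Xist* had log2 signals of 4.49 and 4.66 in CRTC3 KO and 9.17 and 9.39 in WT, each with FSK and then vehicle. The 3 measured Y-linked genes were above the median signal on all 4 arrays. Relative to WT these 3 were higher in CRTC3 KO, by 0.30 to 0.63 with FSK and by 0.44 to 0.46 with vehicle. The part of sex in the results below was not tested. In RNA from whole cultures, fewer cells of a type and less RNA per cell cannot be told apart.

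*Vdr* was the only member with a large FSK response, and it was seen in WT cells. Its log2 signal was 6.48 with FSK and 6.25 with vehicle in CRTC3 KO cells, against 8.41 with FSK and 6.58 with vehicle in WT cells. On the linear scale these are signals of 89.5 and 75.9 in CRTC3 KO and of 339.9 and 95.5 in WT. The WT FSK array stood apart, and the other 3 arrays lay close together. In the ranking of all genes on each array, *Vdr* was at percentile 60.9 with FSK and 56.4 with vehicle in CRTC3 KO, against 89.5 with FSK and 62.2 with vehicle in WT. The receptor transcript was thus above the median in resting cultures of both genotypes.

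**Figure D1:**
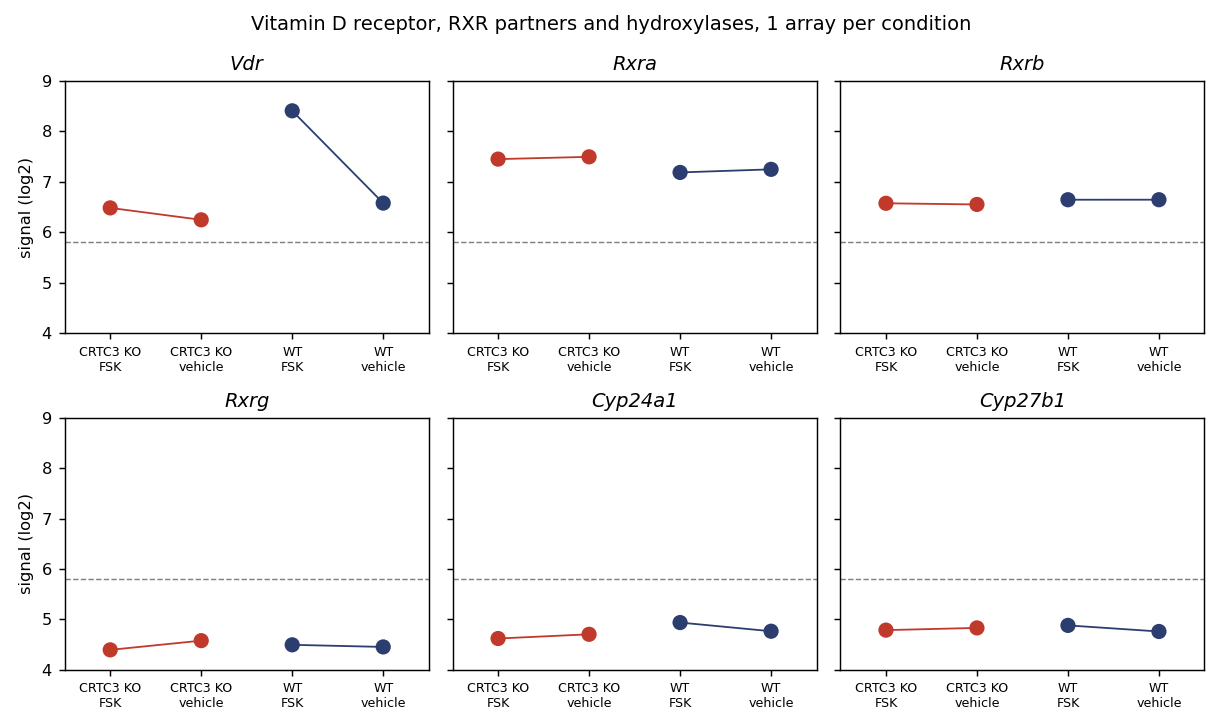
Log2 signal of the 6 members on the 4 arrays, 1 point per array, with CRTC3 KO in red and WT in blue. A dashed line marks the median signal of gene probe sets, 5.81, and only the *Vdr* point of WT with FSK, at 8.41, leaves the level of its other arrays.

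The FSK response of *Vdr* was 0.24 in CRTC3 KO cells, a 1.18-fold difference, and 1.83 in WT cells, a 3.56-fold difference. It was number 1838 from the top of 22180 genes in CRTC3 KO and number 4 in WT. The 3762 genes with a mean signal within 0.5 of that of *Vdr* give a scale for these numbers, since the middle 95% of them had responses between -0.36 and 0.30 in CRTC3 KO and between -0.36 and 0.39 in WT. The response of *Vdr* in CRTC3 KO lay within that range and its response in WT lay outside it. The difference between the responses, CRTC3 KO minus WT, was -1.59, and 8 genes had a lower one. Of 8 endothelial markers, 4 had a higher signal with FSK in CRTC3 KO and 8 in WT, none of them by 2-fold. Over all 22180 genes, 10681 were higher in CRTC3 KO and 10997 in WT. The endothelial markers, of which 4 reached the median signal, had medians of 0.07 in CRTC3 KO and 0.11 in WT. Their part in the *Vdr* response was not tested. The fibroblast and mural markers had median responses of -0.11 in CRTC3 KO and 0.03 in WT, none of them at 2-fold.

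Between genotypes, the CRTC3 KO minus WT difference of *Vdr* was -1.93 with FSK, or 0.263 times the WT signal, and -0.33 with vehicle, or 0.795 times. With FSK, 28 of 22180 genes were lower still relative to WT. For the 12 fibroblast and mural markers, the genotype difference with FSK minus that with vehicle ran from -0.37 to 0.14 and was below 0 for 8 of them, against -1.59 for *Vdr*. *Dcn*, which encodes the matrix proteoglycan decorin, was at -1.18 with FSK and -0.81 with vehicle. *Postn*, which encodes the matrix protein periostin, differed by -4.38 with FSK and -4.13 with vehicle, and the collagen gene *Col1a1* by -1.98 with FSK and -1.66 with vehicle. The part of the difference in fibroblast and mural markers in the *Vdr* values was not tested.

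**Figure D2:**
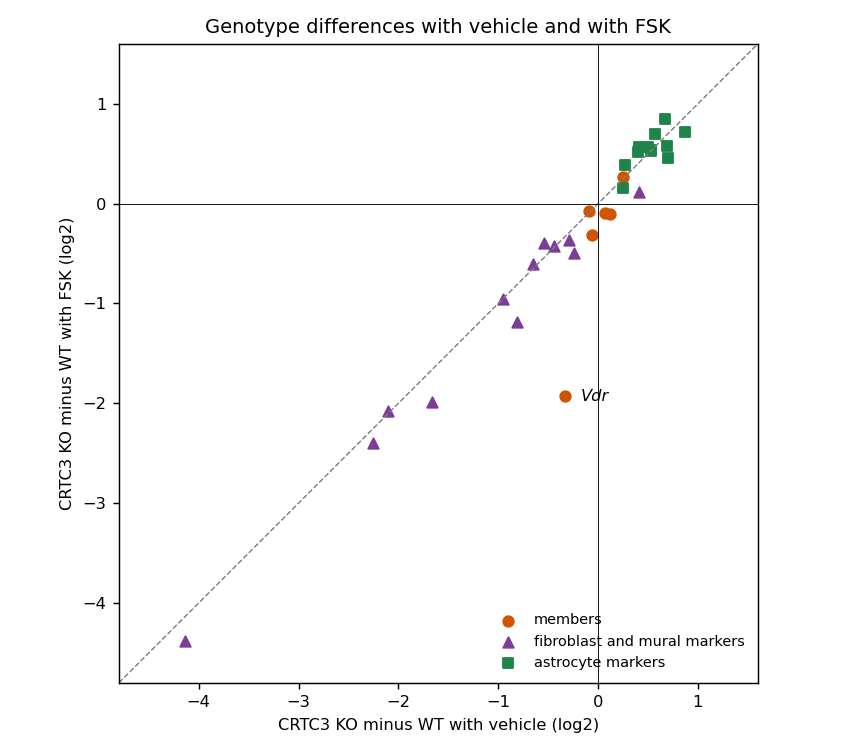
CRTC3 KO minus WT difference in log2 signal with vehicle (x axis) and with FSK (y axis) for the 6 members, 12 fibroblast and mural markers and 12 astrocyte markers, with the line of equal difference dashed. The markers lie on both sides of the line, at most 0.37 below it (*Dcn*), and *Vdr* lies further below it at -1.93 with FSK and -0.33 with vehicle.

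The 250 bases before the *Vdr* start are shown because the CREs of many cAMP-responsive genes lie close to the start. *Vdr* is on the minus strand of chromosome 15 (GRCm38.p6, the build of all positions given here, 97854427 to 97908296), and the sequence, chr15:97908297-97908546 of RefSeq, reads 5′ to 3′ on the strand of the gene.
Vdr: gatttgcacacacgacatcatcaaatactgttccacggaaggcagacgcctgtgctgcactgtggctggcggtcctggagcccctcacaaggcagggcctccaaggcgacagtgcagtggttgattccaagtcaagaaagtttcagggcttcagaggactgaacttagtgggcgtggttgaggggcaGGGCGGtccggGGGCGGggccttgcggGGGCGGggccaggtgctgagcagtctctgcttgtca
The capitals mark 3 GC boxes (GGGCGG), the site of Sp-family factors, which begin at positions -63, -52 and -36 counted from -1 for the base before the start. This motif was added after the sequence had been seen. At least 3 GC boxes on either strand were present in 8.47% of the 32851 RefSeq promoter windows, and at least 1 in 32.7%. Neither the full CRE (TGACGTCA) nor its core (TGACG) was found on either strand, which says only that these letters are not in this window. The full CRE was present in 1.55% of all windows over the same 250 bases, and the core, which each full CRE holds once on each strand with an overlap, in 17.8%. The DR3 element, a direct repeat to which the receptor heterodimer binds, was present in 0.222% of windows and not in that of *Vdr*.

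RefSeq windows were at hand for 5 of the 6 members, 8 windows in all, and 1 of them held a CRE core and none a DR3 element, while *Cyp24a1* was not searched. The core lies in front of *Rxrb* on the plus strand, at position -119, with the core on the opposite strand to the gene, so that the capitals read CGTCA. The bases around it are chr17:34031685-34031705.
Rxrb: ggccacggCGTCAggacgcat
GC boxes were found in windows of 3 members, *Vdr*, *Rxra* and *Rxrb*. A match is a description of the letters and no evidence of binding, and *Rxrb*, with the core, had responses of 0.02 in CRTC3 KO and -0.00 in WT.

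The retinoid X receptor genes had FSK responses between -0.18 and 0.04. *Rxra* encodes the receptor alpha and lies on chromosome 2 (27676445 to 27763319). It had log2 signals of 7.45 with FSK and 7.50 with vehicle in CRTC3 KO, against 7.19 with FSK and 7.25 with vehicle in WT. Its responses were -0.05 and -0.06. The CRTC3 KO minus WT difference was 0.26 with FSK and 0.25 with vehicle, so the genotypes were separated on the arrays of both treatments by less than 1.5-fold.

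*Rxrb*, the gene of the receptor beta on chromosome 17 (34031812 to 34038403), had log2 signals of 6.57 with FSK and 6.55 with vehicle in CRTC3 KO, against 6.64 with FSK and 6.65 with vehicle in WT. This was the member that varied least. *Rxrg*, the gene of the receptor gamma on chromosome 1 (167598362 to 167639623), had signals of 4.39 with FSK and 4.58 with vehicle in CRTC3 KO, against 4.49 with FSK and 4.45 with vehicle in WT. Its responses were -0.18 in CRTC3 KO and 0.04 in WT, at a signal below the median.

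Both hydroxylase genes were dim on every array. *Cyp24a1*, on chromosome 2 (170482957 to 170497145), had log2 signals of 4.62 with FSK and 4.70 with vehicle in CRTC3 KO, against 4.94 with FSK and 4.76 with vehicle in WT. Its responses were -0.08 in CRTC3 KO and 0.17 in WT. *Cyp27b1*, on chromosome 10 (127048246 to 127054884), had signals of 4.79 with FSK and 4.83 with vehicle in CRTC3 KO, against 4.88 with FSK and 4.76 with vehicle in WT. Its responses were -0.04 in CRTC3 KO and 0.12 in WT. For both genes the highest of the 4 signals was that of WT with FSK, as for *Vdr*, but it exceeded the WT vehicle signal by less than 1.5-fold. Of the 10 responses of the 5 members other than *Vdr*, all 10 lay within the middle 95% of genes of like signal.

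**Figure D3:**
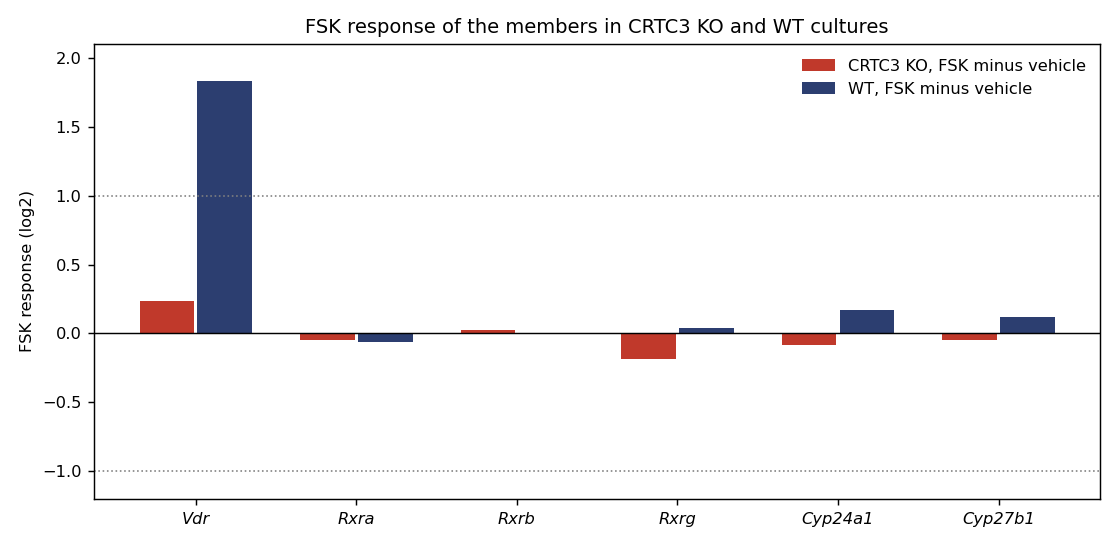
FSK response, the log2 signal with FSK minus that with vehicle, of the 6 members in CRTC3 KO (red) and WT (blue), 1 array per bar end and no error. Dotted lines mark 2-fold, which only the WT bar of *Vdr* passes, at 1.83, and the bars of the other 5 genes lie between -0.18 and 0.17.

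At a threshold of 2-fold, no member passed with FSK in CRTC3 KO, where 0.0271% of all genes were higher and 0.0496% lower. In WT, 1 member was higher with FSK and none lower, where 0.122% of genes were higher and 0.0586% lower. In the CRTC3 KO response minus the WT response, 1 member was lower and none higher, beside 0.379% of genes lower and 0.257% higher. Between CRTC3 KO and WT, 1 member was lower and none higher with FSK, where 0.293% of genes were higher and 0.825% lower. With vehicle no member passed, where 0.117% of genes were higher and 0.478% lower. The member in each of these counts is *Vdr*, for which the group was chosen, so nothing is read from the counts. By direction alone, 2 of the 6 members were higher with FSK in CRTC3 KO, beside 10681 of 22180 genes. In WT 4 of the 6 were higher, beside 10997 of 22180 genes, and nothing is read from these counts either. The direction of *Rxra* in WT turned with a centring on housekeeping genes, and that of *Rxrb* in WT under 3 of the 5 alternatives tried.

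The nuclear receptor family gives the setting for *Vdr*, since its members share the fold of the receptor. Of 49 genes listed, 45 were measured and 27 reached the median signal. Their median response was 0.06 in CRTC3 KO and 0.02 in WT, beside -0.01 and -0.00 over all genes. *Vdr* had the 7th highest response of the 45 in CRTC3 KO and the highest in WT, and it was the only gene of the family at 2-fold. The next in WT was *Nr4a2*, an orphan receptor gene induced early by cAMP in many cells, with signals of 9.997 with FSK and 9.48 with vehicle in CRTC3 KO, against 10.46 with FSK and 9.83 with vehicle in WT. Its responses were 0.52 and 0.63, so unlike *Vdr* it was higher with FSK by a like amount in both genotypes.

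Other leading responses of the family were smaller or held in a single genotype. *Nr2f1*, which encodes the orphan receptor COUP-TFI, had responses of 0.38 in CRTC3 KO and 0.02 in WT. *Nr4a3*, a relative of *Nr4a2*, had responses of 0.34 in CRTC3 KO and 0.19 in WT. *Nr3c1*, the glucocorticoid receptor gene, had responses of 0.08 in CRTC3 KO and -0.26 in WT. In the CRTC3 KO response minus the WT response, *Vdr* was the lowest of the 45 at -1.59, followed by *Esrrb*, an estrogen-related receptor gene, at -0.73. *Esrrb* was below the median signal on all 4 arrays, so that a floor there takes its value to 0, and it was named after its value was seen.

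**Figure D4:**
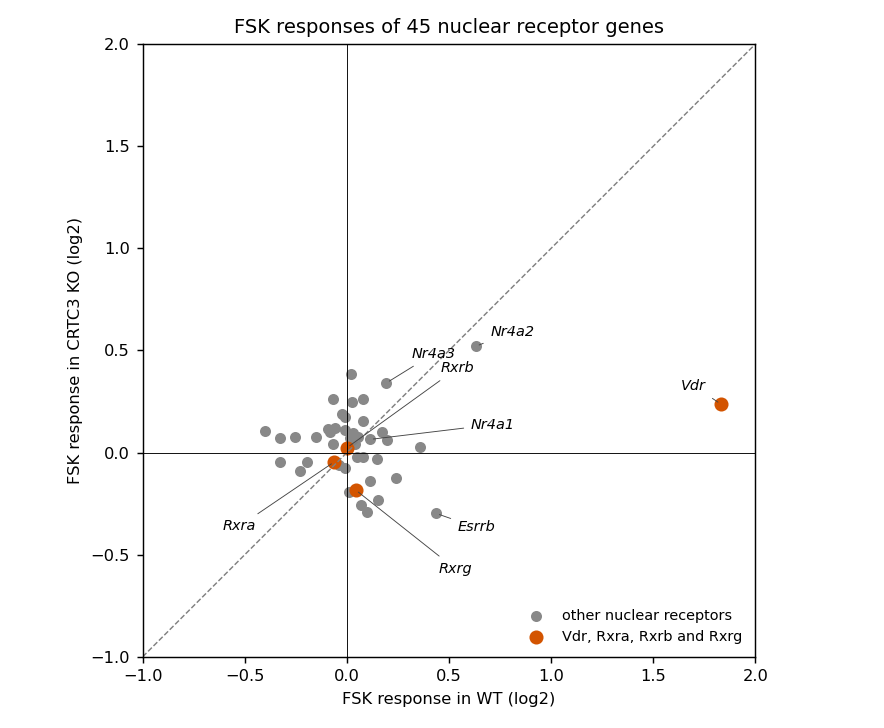
FSK response in WT (x axis) and in CRTC3 KO (y axis) of 45 nuclear receptor genes, in log2 units, with *Vdr* and the 3 retinoid X receptor genes in orange and the line of equal response dashed. *Vdr* lies alone at 0.24 in CRTC3 KO and 1.83 in WT, while *Nr4a2* lies near the line at 0.52 in CRTC3 KO and 0.63 in WT.

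Among the other receptors that pair with a retinoid X receptor, the highest response in WT was the 0.63 of *Nr4a2*. Of 16 listed, 15 were measured, with median responses of 0.07 in CRTC3 KO and 0.03 in WT and none at 2-fold in any comparison. *Ppard*, the gene of a fatty acid receptor, had responses of 0.03 in CRTC3 KO and 0.36 in WT. *Rarg*, a retinoic acid receptor gene, had responses of -0.26 in CRTC3 KO and 0.07 in WT. *Thra*, the gene of a thyroid hormone receptor, had responses of 0.09 in CRTC3 KO and 0.03 in WT, and the orphan receptor gene *Nr4a1* 0.06 in CRTC3 KO and 0.11 in WT.

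Genes for the supply and uptake of vitamin D had responses of at most 0.33 in WT. The 0.33 was of *Cyp2r1*, which had -0.31 in CRTC3 KO. It was below the median signal on all 4 arrays and was named after its value was seen. Of 10 listed, 9 were measured and 5 reached the median signal, with median responses of 0.03 in CRTC3 KO and -0.01 in WT and none at 2-fold. *Lrp2*, which encodes megalin, the endocytic receptor that takes up vitamin D bound to its carrier, had log2 signals of 7.85 with FSK and 7.77 with vehicle in CRTC3 KO, against 8.26 with FSK and 7.95 with vehicle in WT. Its responses were 0.08 in CRTC3 KO and 0.31 in WT. *Pdia3*, the gene of a protein disulfide isomerase that also binds calcitriol at the membrane, had responses of 0.12 in CRTC3 KO and -0.12 in WT. *Hsd3b7*, which encodes a sterol dehydrogenase of bile acid synthesis, had responses of -0.16 in CRTC3 KO and -0.04 in WT.

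A list of 28 genes known as targets of the vitamin D receptor, which does not hold all of them, had 24 measured genes, of which 10 reached the median signal and none was 2-fold higher with FSK. In CRTC3 KO 16 were higher and 8 lower with FSK, with a median of 0.07. In WT 12 were higher and 12 lower, with a median of 0.00. The list does not mark the direction in which the receptor acts on a gene, so receptor activity is not read from these counts. Over all 22180 genes, 10681 were higher with FSK in CRTC3 KO and 10997 in WT. The 10 targets that reached the median signal had medians of 0.04 in CRTC3 KO and 0.01 in WT. With centring on housekeeping genes, 19 of the 24 targets were higher in CRTC3 KO and 18 in WT. That centring also moved the median response of all genes, to 0.02 in CRTC3 KO and 0.12 in WT. The counts of all genes above are without it, so nothing is read from the 19 and 18.

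Among the targets, *Cd14*, which encodes a coreceptor for bacterial lipopolysaccharide, had the largest response in WT. Its log2 signal was 9.26 with FSK and 9.03 with vehicle in CRTC3 KO, against 10.01 with FSK and 9.24 with vehicle in WT. The responses were 0.23 in CRTC3 KO and 0.77 in WT. *Cd14* is also a macrophage gene. The 11 microglia and macrophage markers had a median response of 0.00 in CRTC3 KO, from -0.58 to 0.17, and of 0.02 in WT, from -0.40 to 0.19. The part of these cells in the *Cd14* response was not tested. *Tnfrsf11b*, the gene of osteoprotegerin, a decoy receptor that restrains osteoclast formation, had signals of 6.95 with FSK and 6.81 with vehicle in CRTC3 KO, against 7.60 with FSK and 7.93 with vehicle in WT. It was the only target at 2-fold between genotypes, with a difference of -1.12 with vehicle, and it was lower in CRTC3 KO with FSK too, by -0.65. The responses of the remaining targets that reached the median signal were small. *Ccnc*, the gene of cyclin C, had responses of 0.24 in CRTC3 KO and -0.01 in WT. *Cldn12*, a claudin gene of intestinal calcium uptake, had responses of -0.24 in CRTC3 KO and 0.11 in WT, and *Slc8a1*, a sodium-calcium exchanger gene, 0.08 in CRTC3 KO and -0.19 in WT.

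Coactivators and corepressors of the receptor were all above the median signal and none changed by 2-fold in any comparison. Of 15 listed, 13 were measured, with median responses of -0.01 in CRTC3 KO and -0.07 in WT. *Med14*, which encodes a subunit of the Mediator complex that links receptors to RNA polymerase, had the largest response in both genotypes, 0.29 in CRTC3 KO and 0.22 in WT. *Ncoa1* and *Ncoa3*, which encode p160 coactivators, had responses of 0.14 and -0.20 in CRTC3 KO and of -0.14 and -0.12 in WT. *Nsd1*, a histone methyltransferase gene, had responses of -0.01 in CRTC3 KO and -0.21 in WT, and *Baz1b*, which encodes a chromatin remodelling subunit known to bind the receptor, -0.04 in CRTC3 KO and -0.15 in WT. Relative to WT, 11 of the 13 had a higher signal in CRTC3 KO with FSK and 9 with vehicle, with medians of 0.14 and 0.10. Over all 22180 genes, 11055 were higher in CRTC3 KO with FSK and 11468 with vehicle. Genes reaching the median signal had medians of 0.03 with FSK and 0.02 with vehicle. Nothing is read from the counts. The count with vehicle was between 8 and 11 under other scalings. The 11 came with centring on housekeeping genes, which moved the median of all genes in this difference to 0.11.

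Early genes of the cAMP response were mostly higher with FSK, whatever the genotype. Among 12 of them, 12 were higher with FSK in CRTC3 KO, with a median of 0.30, and 11 were higher in WT, with a median of 0.33. Of all 22180 genes, 10681 were higher with FSK in CRTC3 KO and 10997 in WT. The exception was *Ppargc1a*, a metabolic coactivator gene, at -0.04 in WT, and with centring on housekeeping genes it was higher as well. None of the 12 reached 2-fold. *Fos*, the immediate early transcription factor gene, had signals of 9.59 with FSK and 9.14 with vehicle in CRTC3 KO, against 9.81 with FSK and 9.18 with vehicle in WT. The largest response was 0.55 in CRTC3 KO, of *Sik1*, a kinase gene that restrains CRTC proteins, and 0.74 in WT, of *Nfil3*, a transcription factor gene. The 0.24 of *Vdr* in CRTC3 KO was thus below the median of these genes, within their range of 0.06 to 0.55. Its 1.83 in WT was above the response of each of them. RefSeq windows were at hand for 10 of the 12, 14 windows in all, and 10 windows of 9 genes held a CRE core. Over all windows the share was 17.8%, and the 1 window of *Vdr* held none. The list was chosen as genes that respond to cAMP, so nothing is read from this count.

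The genes closest to *Vdr* in pattern were found by the Euclidean distance between log2 signals, each centred on the mean of its gene, over the 4 arrays. The distance was taken to 11992 other genes that reached the median signal on at least 1 array. The 8 nearest were *Il6* at 0.0935, *Penk* at 0.196, *Procr* at 0.256, *Rasd1* at 0.291, *Thbd* at 0.348, *Prg4* at 0.391, *Has1* at 0.452 and *Gprc5a* at 0.497. All 9 genes share the same 4 arrays, and in each of them the WT FSK array has the highest signal. The 8 were chosen for their likeness to *Vdr*, so this follows from the choice and is no separate result. *Il6*, *Prg4* and *Has1* were below the median signal on the other 3 arrays and so entered through the WT FSK array alone. *Il6*, an interleukin gene, had log2 signals of 5.69 with FSK and 5.34 with vehicle in CRTC3 KO, against 7.56 with FSK and 5.68 with vehicle in WT. *Penk*, the enkephalin precursor gene, had signals of 5.96 with FSK and 5.51 with vehicle in CRTC3 KO, against 7.91 with FSK and 6.07 with vehicle in WT.

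The remaining neighbours encode the protein C receptor (*Procr*), a Ras-like protein (*Rasd1*), thrombomodulin (*Thbd*), the joint lubricant proteoglycan (*Prg4*), a hyaluronan synthase (*Has1*) and an orphan receptor (*Gprc5a*). Over the 8 neighbours the responses ran from 0.22 (*Procr*) to 0.76 (*Has1*) in CRTC3 KO. In WT they ran from 1.46 (*Rasd1*) to 2.19 (*Procr*). Larger responses in WT than in CRTC3 KO follow from the choice by likeness to *Vdr*. *Has1* was below the median signal on both CRTC3 KO arrays, and a floor there takes its 0.76 to 0, as it does the responses of *Il6* and *Prg4* in CRTC3 KO. *Thbd*, at 0.62, is then the highest in CRTC3 KO. The floor takes the response of *Prg4* in WT to 0.56. *Vdr* itself, with 0.24, was near the low end in CRTC3 KO. With vehicle the neighbours differed between CRTC3 KO and WT by -0.16 (*Procr*) to -0.97 (*Gprc5a*), against -0.33 for *Vdr*. *Il6*, at -0.34, was the neighbour nearest to *Vdr* in this difference, and *Gprc5a*, *Has1*, *Prg4* and *Thbd* lay between -0.97 and -0.78, though the floor takes *Il6*, *Has1* and *Prg4* to 0.

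**Figure D5:**
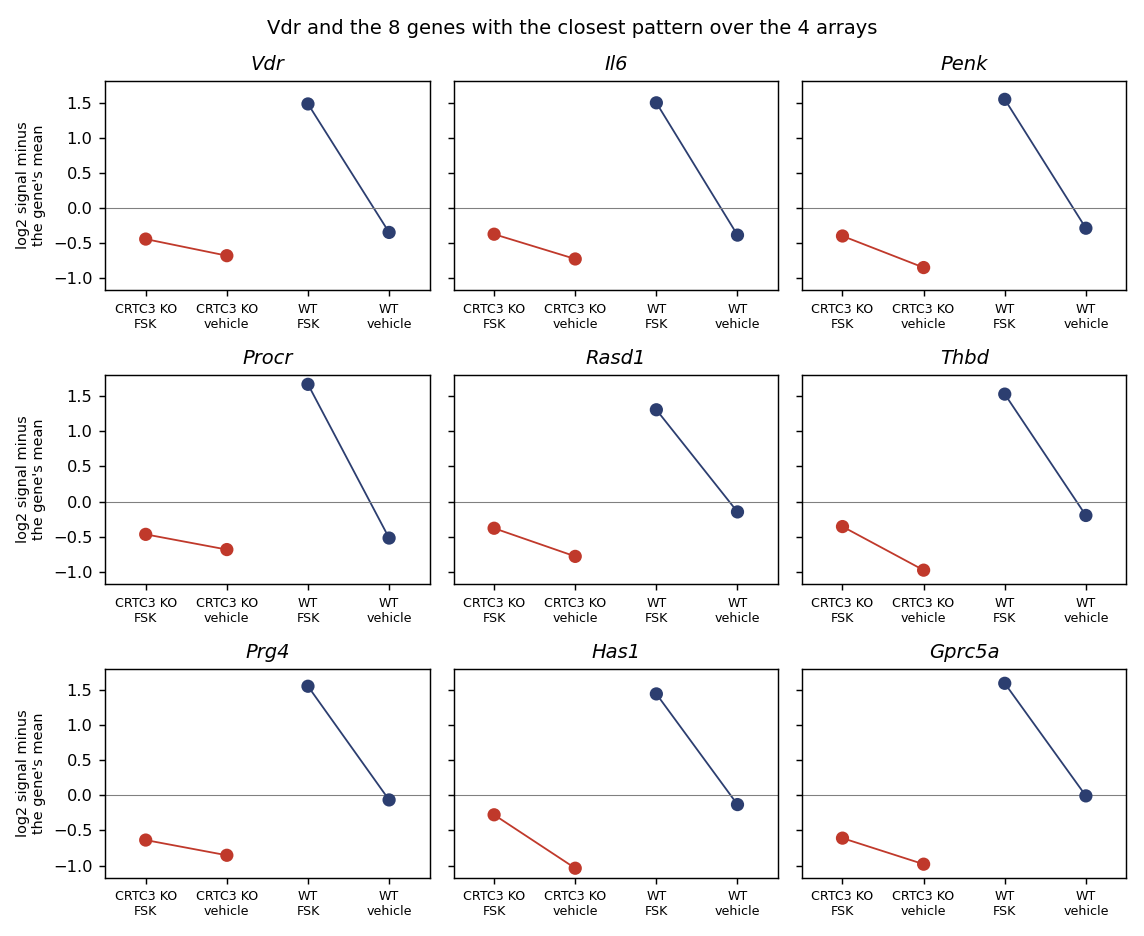
Log2 signal minus the mean of the gene on the 4 arrays for *Vdr* and the 8 genes nearest to it, with CRTC3 KO in red and WT in blue. In each panel the WT FSK array is the highest, at 1.48 for *Vdr*, and the 3 other arrays are at or below 0. The genes were chosen for this likeness.

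RefSeq windows were at hand for 3 of the 8 neighbours, and each held a CRE core within 250 bases of its start, unlike that of *Vdr*. They are shown with the core in capitals, or with the full CRE for *Has1*, each on the strand of its gene. *Il6* (chr5:30012971-30012991, plus strand) has it at position -135, *Procr* (chr2:155751006-155751026, plus strand) at -203 and *Has1* (chr17:17855259-17855279, minus strand) at -83.
Il6: ctaaacgaCGTCAcattgtgc
Procr: agtttcccCGTCAtctctaca
Has1: acttgtccTGACGTCAgccct
The windows of *Il6* and *Procr* read the core on the opposite strand to the gene. With 3 windows among 8 genes, of which *Il6* and *Has1* were dim outside the WT FSK array, no share was set against the 17.8% of all windows.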

How the data were processed

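RNA of the 4 cultures was hybridized to Affymetrix GeneChip Mouse Gene 2.0 ST arrays. The authors deposited gene-level log2 values, summarized and normalized by RMA in Affymetrix Expression Console, and these were used as they are. RMA equalizes the arrays and compresses differences at low signal. For the software version, the annotation's genome build and any probe filter, nothing is given in the sources used here. Of 41345 probe sets, 23521 name 1 gene, 1820 name several and 16004 none, and 23328 matched a gene in RefSeq's table for GRCm38.p6. Where several probe sets name 1 of the 22180 genes, that of highest mean was taken. Array medians lay between 5.48 and 5.50. Differences of log2 values were computed, with no test, since each condition has 1 array. The members and lists were chosen with earlier results of these data known. A rule named genes in the lists of vitamin D supply, receptor targets, coregulators, retinoid X receptor partners and nuclear receptors, save *Esrrb* and *Cyp2r1*. It took those at 2-fold in any comparison and the 3 largest responses in each genotype among genes reaching the median signal. From the cAMP and marker lists, *Fos*, *Sik1*, *Nfil3*, *Ppargc1a*, *Postn*, *Col1a1* and *Dcn* were added after their values were seen. Not every marker at 2-fold is named. Listed genes that were not measured on a probe set of their own are not analysed here. RefSeq promoter windows hold 250 bases before and 50 after a start. The scripts were tested on simulated data. Python 3.11.15, numpy 2.4.6, pandas 2.3.3 and matplotlib 3.10.9 were used.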

Additional observations from a re-analysis of the deposited data

Results flagged for a closer look

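For 4 members the FSK response had opposite signs in the genotypes, and with 1 array per condition the difference was not tested. The CRTC3 KO response minus the WT response was 0.024 for *Rxrb*, -0.22 for *Rxrg*, -0.26 for *Cyp24a1* and -0.16 for *Cyp27b1*. *Rxrb* had responses of 0.02 in CRTC3 KO and -0.00 in WT, and its sign in WT turned under 3 of the 5 alternatives. The other 3 genes were below the median signal on every array.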

How the results depend on the processing

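No paired analysis was possible because each condition has 1 array, and for the same reason no array could be left out. Of 150 values of the members under 5 alternatives, 150 stayed within 1.5-fold of the value given, and 8 small values changed sign, 5 of *Rxrb*, 2 of *Rxra* and 1 of *Cyp24a1*. The *Vdr* response ran between 0.24 and 0.26 in CRTC3 KO and between 1.83 and 1.95 in WT, and its CRTC3 KO minus WT difference between -1.93 and -1.91 with FSK and between -0.33 and -0.23 with vehicle. A floor at the median signal set 15 values of the 3 dim members to 0. Centring on housekeeping genes moved the median of all genes to 0.12 in the WT response, -0.10 in the response difference and 0.11 in the vehicle difference. At 2-fold it also gave 54 genes higher with FSK in WT, 139 lower in the response difference and 41 higher in CRTC3 KO with vehicle.

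The counts of genes at 2-fold depended on the dim genes, and each pair of counts below gives genes higher and genes lower. With the floor they were 1 and 1 in the CRTC3 KO response, 12 and 3 in the WT response, and 10 and 12 in their difference, with 35 higher in CRTC3 KO with FSK and 15 higher with vehicle. Among genes reaching the median signal they were 2 and 6, 16 and 4, and 16 and 20 in the same 3 comparisons. By construction, a threshold of 1.5-fold gave 114 and 151, 272 and 168, and 459 and 648 there, then 448 and 832 between genotypes with FSK and 279 and 444 with vehicle. A threshold of 3-fold gave 0 and 2, 8 and 1, and 5 and 9, then 7 and 58 with FSK and 5 and 29 with vehicle. *Vdr* passed 3-fold in the WT response, in the difference and with FSK. Of 375 medians of lists, 36 moved by more than 0.1, and of 975 values of the other genes examined so, 11 moved by more than 1.5-fold, with the floor, of *Prg4*, *Has1*, *Esrrb*, *Crtc3* and *Xist*.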
